A study of Mus musculus with 6 samples.

Results

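The 8 genes described here were grouped as demethylases of lysine 4 or lysine 27 of histone H3: Kdm5a, Kdm5b, Kdm5c, Kdm1a, Kdm1b, Kdm2b, Kdm6a and Kdm6b. They were taken by symbol from a table of 29955 genes, in which each of the 8 had a value, and all 8 passed the filter on low reads. In mouse embryonic fibroblasts (MEFs) lacking Rnf40, Kdm6b mRNA fell to 53.1% and Kdm1a to 73.2% of the Rnf40+/+ level, while Kdm5a, Kdm5c, Kdm1b and Kdm6a rose to between 128% and 133% of it. Kdm5b and Kdm2b were not called. Thus 4 of 8 members were higher and 2 were lower at an adjusted p under 0.05 (limma with Benjamini-Hochberg adjustment), in a comparison in which 23.3% of the 16378 genes tested were higher and 24.1% were lower. The number of members called higher was 2 without Rnf40+/+ replicate 3, Rnf40-/- replicate 1 or Rnf40-/- replicate 2, as the calls of Kdm1b and Kdm6a were lost.

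RNF40 forms, with RNF20, the ubiquitin ligase that places 1 ubiquitin on histone H2B, a mark that is coupled to H3K4 methylation. The study compared the mRNA of MEFs with and without Rnf40 to ask which genes depend on this mark. The Rnf40-/- group consisted of MEFs at passage 3 whose Rnf40 exons 3 and 4, flanked by loxP sites, were removed by the Cre-ERT2 recombinase made from the Rosa26 locus, after exposure to 250 nM 4-hydroxytamoxifen (4-OHT) over 5 days and a further 3 days in its absence. The Rnf40+/+ group consisted of MEFs at passage 3, and the sources used here do not say whether these cells received 4-OHT, so that the deletion and the treatment cannot be told apart. The only MEFs whose origin the methods describe came from embryos homozygous for the loxP allele with the recombinase. Each group had 3 libraries. Nothing in the labels ties a library to its own embryo, so the p-values measure the spread between these samples, which may be technical.

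H3K4 methylation is found at active promoters and enhancers, and H3K27 trimethylation at genes silenced by Polycomb proteins. The KDM5 enzymes use a JmjC domain, iron and 2-oxoglutarate to remove trimethyl and dimethyl groups from H3K4, whereas the KDM1 enzymes (LSD1, encoded by Kdm1a, and LSD2, encoded by Kdm1b) are flavin-dependent amine oxidases that act on H3K4 with fewer methyl groups. KDM2B binds CpG islands through a CXXC zinc finger and brings the Polycomb complex PRC1.1 to them, and KDM6A (UTX) and KDM6B (JMJD3) are JmjC enzymes that remove H3K27me3.

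The 250 bases upstream of the start site are shown for 4 members that stand for the 3 outcomes: Kdm1a, which was lower, Kdm1b and Kdm6a, which were higher, and Kdm5b, which was not called. The calls of Kdm1b and Kdm6a rested on single libraries, and a link between promoter sequence and change was not tested. The sequences came from the RefSeq promoters of assembly GRCm38.p6, in which 6 of the 8 members had an entry. Kdm5a and Kdm6b had none. Positions were found by a unique exact match in mm9. The start site used for Kdm5c lay 207 bases inside the annotated gene and Kdm2b had several start sites, so these windows are not printed. The last 7 bases of the Kdm5b window also lie inside its annotated gene. Each window is written 5′ to 3′ on the strand of its gene, and capitals mark a GC box (GGGCGG, or CCGCCC on the other strand), a CCAAT box (CCAAT or ATTGG) or an E-box (CACGTG).
Kdm1a, chr4:136158639-136158888, minus strand: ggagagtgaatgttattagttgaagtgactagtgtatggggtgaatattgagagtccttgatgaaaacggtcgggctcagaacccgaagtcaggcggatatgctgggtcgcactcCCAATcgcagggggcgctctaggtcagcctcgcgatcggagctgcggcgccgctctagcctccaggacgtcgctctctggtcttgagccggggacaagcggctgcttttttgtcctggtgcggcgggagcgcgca
Kdm1b, chr13:47138618-47138867, plus strand: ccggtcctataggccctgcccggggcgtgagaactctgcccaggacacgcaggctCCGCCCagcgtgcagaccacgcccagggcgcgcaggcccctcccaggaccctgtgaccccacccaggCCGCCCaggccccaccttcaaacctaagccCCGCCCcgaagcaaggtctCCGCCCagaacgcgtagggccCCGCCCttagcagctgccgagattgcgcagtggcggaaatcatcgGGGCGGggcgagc
Kdm6a, chrX:17739451-17739700, plus strand: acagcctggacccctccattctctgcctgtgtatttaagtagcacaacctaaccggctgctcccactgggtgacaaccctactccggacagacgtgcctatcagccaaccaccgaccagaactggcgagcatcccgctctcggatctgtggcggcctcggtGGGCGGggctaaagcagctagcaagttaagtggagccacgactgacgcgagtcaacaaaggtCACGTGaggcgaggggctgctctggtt
Kdm5b, chr1:136456505-136456754, plus strand: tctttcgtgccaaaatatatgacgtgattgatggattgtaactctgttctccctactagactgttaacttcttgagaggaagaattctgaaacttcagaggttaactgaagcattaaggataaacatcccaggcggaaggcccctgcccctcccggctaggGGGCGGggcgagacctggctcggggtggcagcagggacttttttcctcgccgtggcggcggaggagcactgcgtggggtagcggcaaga
The Kdm1b window held 6 GC boxes and 71.6% G and C with 22 CpG dinucleotides. The Kdm1a window held 1 CCAAT box, 59.2% G and C and 21 CpG dinucleotides. The Kdm6a window held 1 GC box and 1 E-box, 59.6% G and C and 15 CpG dinucleotides. All 4 windows, including that of Kdm5b with 1 GC box, 54.4% G and C and 13 CpG dinucleotides, were above the medians of the 32851 RefSeq promoters of the same length, which were 52.4% G and C and 6 CpG dinucleotides. Of the windows not printed, that of Kdm5c, which was higher, held no GC box and 1 CCAAT box. It had 43.6% G and C, below the median, and 10 CpG dinucleotides. Those of Kdm2b held from 58.4% to 80.8% G and C. Of all these promoters, 32.7% held a GC box, 33.8% a CCAAT box and 6.02% an E-box on either strand. The cAMP response element (TGACGTCA) and 2 forms of the E2F site (TTTGGCGC and TTTCCCGC) were searched in the same way, none of the 6 motifs contains another, and these letters occurred in none of the member windows. They occurred in 1.55%, 0.417% and 0.895% of all promoters.

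The libraries held between 17053436 and 26344170 reads on genes, and the 8 members had between 224 and 3051 reads in a library, so that none was close to the 3 reads taken as the limit of detection. The values of the table are reads scaled by a single size factor for the library, called normalized counts here, and changes are on the scale of log2(normalized count + 1). Rnf40 itself lay between 1096 and 1278 in Rnf40+/+ and between 439 and 519 in Rnf40-/- libraries (log2 change -1.30, adjusted p = 4.25e-07), in the direction of the labels. Of 10 fibroblast genes fixed as markers, 9 were lower in Rnf40-/- MEFs, with a summed normalized count from 684375 to 755674 in Rnf40+/+ and from 410545 to 413449 in Rnf40-/- libraries, and none was at 0. Of 10 genes of cycling cells all 10 were lower, and their sum went from 5214 to 6536 in Rnf40+/+ and from 1718 to 1852 in Rnf40-/- libraries. Of 10 macrophage genes, all tested, 2 were higher and 3 lower (sums of 5755 to 9763 and of 3753 to 4138). Of 6 endothelial genes 5 were tested, of which 3 were higher and 1 lower (sums of 146 to 282 and of 234 to 333). These counts stand beside 23.3% of all genes tested that were higher and 24.1% that were lower. Sums were 35.7 to 107 and 41.5 to 66.3 for 7 epithelial genes, of which 3 were tested and none was called. They were 3255 to 4666 and 2247 to 2597 for the 5 of 6 neural genes with a value. Of these 3 were tested, and Nes was the only one called and was lower. Sums were 126 to 1375 and 28.2 to 49.1 for 5 muscle genes. Of these only Des was tested, and it was lower, and Myod1 was at 0 in every library. The part of these cell types and of cell division in the changes of the demethylase genes was not tested, and in bulk RNA fewer cells of a type and less RNA per cell cannot be told apart. Rnf40+/+ replicate 1 stood apart in Actc1, an actin of striated muscle (937, against 1.02 to 10.2 elsewhere), and in Y-linked genes, and Rnf40+/+ replicate 3 in the macrophage gene Tyrobp (343, against 52.2 to 178). These genes are examples and not the whole of the difference. Across genes, a chi-square per gene of the difference between 2 libraries was 28.8 for Rnf40+/+ replicates 1 and 3. It was 25.9 for replicates 2 and 3 and 8.35 for replicates 1 and 2. This measure also rises with read depth. Values without Rnf40+/+ replicate 1 or 3 are given beside the members whose call was lost without them, and beside some others.

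**Figure D1:**
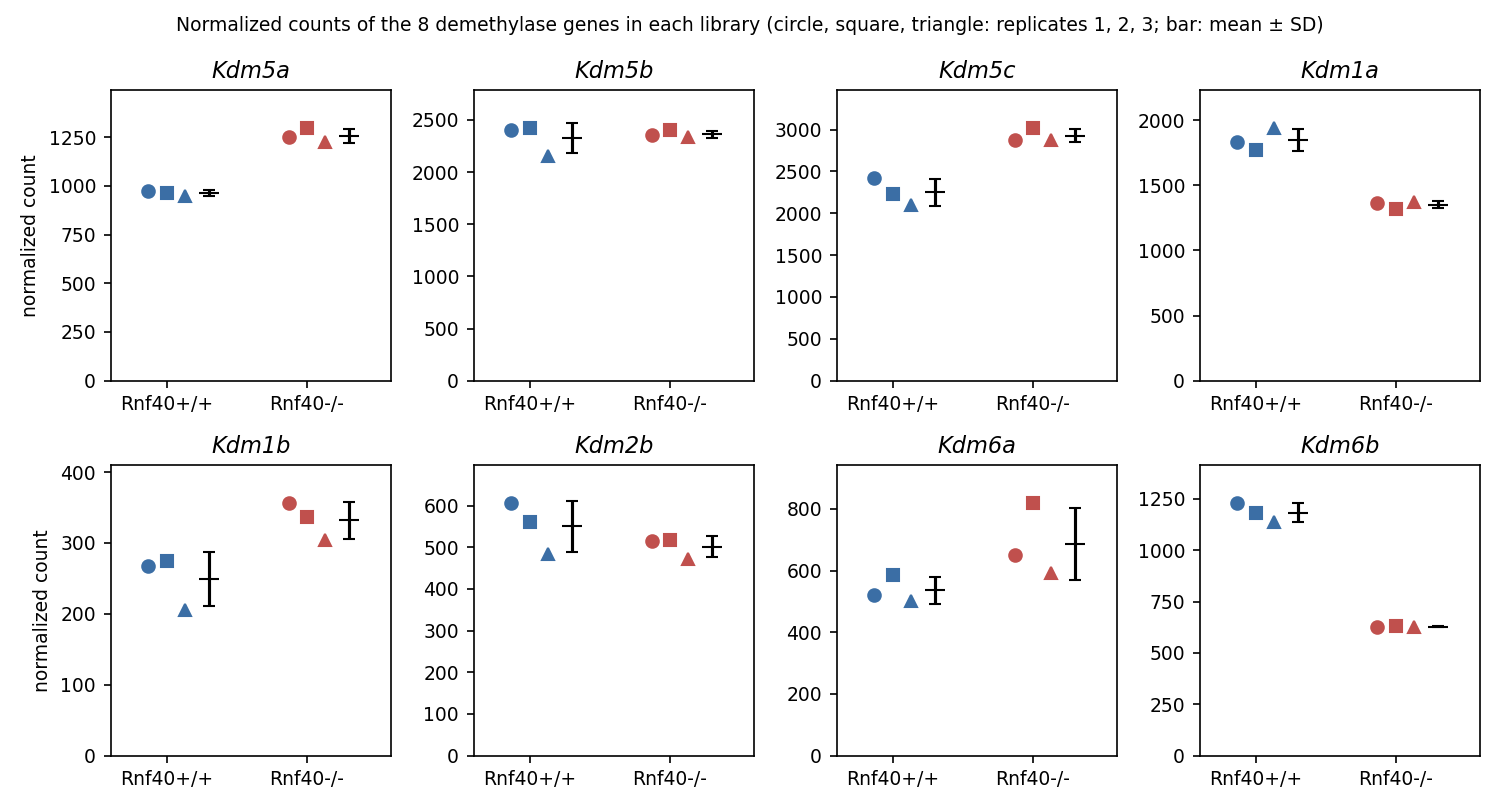
Each panel plots the normalized count of 1 demethylase gene (vertical axis, from 0) in the 3 Rnf40+/+ (blue) and 3 Rnf40-/- (red) libraries, with circle, square and triangle for replicates 1, 2 and 3 and a black bar for the mean ± SD. The groups overlap for Kdm5b and Kdm2b, and Kdm6b shows the largest change relative to its Rnf40+/+ level, from a mean of about 1183 to 628.

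Of the KDM5 genes, Kdm5a and Kdm5c rose and Kdm5b did not change beyond its error. KDM5A (RBP2) was first known as a protein bound by the retinoblastoma protein. Kdm5a (ENSMUSG00000030180) spans bases 120314117 to 120394592 of chromosome 6 in mm9 on the plus strand, and its transcript with the longest coding part has 28 exons. Its normalized counts were 976, 965 and 946 in Rnf40+/+ replicates 1 to 3, and 1251, 1295 and 1226 in Rnf40-/- replicates 1 to 3. Every Rnf40-/- library was above every Rnf40+/+ library, by a gap several times wider than the spread within a group. The means of 962 ± 15.3 and 1257 ± 35.2 (SD, n = 3 each) gave a log2 change of 0.39 (SE 0.067, 95% interval 0.24 to 0.53, adjusted p = 0.000533). An exon of Ccdc77 lies on the other strand of Kdm5a. The library kit keeps the strand but the strand setting of the counting is not given in the sources used here, and Ccdc77 itself had 189 ± 8.24 and 195 ± 6.83 normalized counts.

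KDM5B (PLU-1, JARID1B) is known for its high level in breast cancer. Kdm5b (ENSMUSG00000042207, plus strand of chromosome 1, 136456748 to 136529454, 27 exons) had normalized counts of 2405, 2419 and 2158 without the deletion and of 2353, 2398 and 2337 with it. All 3 Rnf40-/- values lay within the range of the Rnf40+/+ values, of which replicate 3 was the lowest. The log2 change of 0.02 (SE 0.066, adjusted p = 0.793) had a 95% interval from -0.12 to 0.17, and without Rnf40+/+ replicate 3 it was -0.03.

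KDM5C (SMCX) is X-linked, and its gene in people is mutated in a form of intellectual disability. Kdm5c (ENSMUSG00000025332, plus strand of chromosome X, 148667563 to 148709078, 26 exons) had 2422, 2226 and 2103 normalized counts in Rnf40+/+ and 2882, 3015 and 2881 in Rnf40-/- libraries. The lowest Rnf40-/- library was well above the highest Rnf40+/+ library. Kdm5c thus rose from 2250.2 ± 161 to 2926 ± 77.3 (SD, n = 3 each), a log2 change of 0.38 (SE 0.068, 95% interval 0.23 to 0.53, adjusted p = 0.000709). With any 1 library left out the change lay between 0.33 (without Rnf40+/+ replicate 3) and 0.43 (without Rnf40+/+ replicate 1).

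The KDM1 genes moved in opposite directions. LSD1, encoded by Kdm1a, works with the CoREST scaffold and histone deacetylases and is the better studied of the pair. Kdm1a (ENSMUSG00000036940, minus strand of chromosome 4, 136106455 to 136158638, 20 exons) had 1829.6, 1770.3 and 1937 normalized counts in Rnf40+/+ and 1364, 1318 and 1373 in Rnf40-/- libraries. All 3 Rnf40-/- values were below all 3 Rnf40+/+ values. The means of 1846 ± 84.7 and 1352 ± 29.4 (SD, n = 3 each) correspond to a log2 change of -0.45 (SE 0.066, 95% interval -0.59 to -0.30, adjusted p = 0.000158), and the change lay between -0.48 and -0.41 with any 1 library left out.

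LSD2, encoded by Kdm1b, is known for H3K4 demethylation in the growing oocyte, where it is needed for DNA methylation at imprinted genes. Kdm1b (ENSMUSG00000038080, plus strand of chromosome 13, 47138868 to 47179982, 21 exons) had the fewest reads of the 8 members, with 268, 274 and 206 normalized counts in Rnf40+/+ and 356, 336 and 304 in Rnf40-/- libraries. The groups did not overlap, but replicate 3 was the lowest library of both. Its rise from 249 ± 37.6 to 332 ± 26.2 (SD, n = 3 each) had a log2 change of 0.42 (SE 0.13, 95% interval 0.14 to 0.70, adjusted p = 0.0183). This call rested on single libraries: the change was 0.48 (adjusted p = 0.0135) without Rnf40+/+ replicate 1, but 0.29 (adjusted p = 0.0524) without Rnf40+/+ replicate 3, 0.37 (adjusted p = 0.0806) without Rnf40-/- replicate 1 and 0.41 (adjusted p = 0.0593) without Rnf40-/- replicate 2.

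Kdm2b (ENSMUSG00000029475, minus strand of chromosome 5, 123320677 to 123465089, 23 exons) had 605, 559.8 and 485 normalized counts in Rnf40+/+ and 515, 517 and 472 in Rnf40-/- libraries. The groups overlapped, since Rnf40+/+ replicate 3 lay below 2 of the Rnf40-/- libraries. Means were 550.0 ± 61.0 and 501 ± 25.2 (SD, n = 3 each), and the log2 change of -0.13 (SE 0.099, adjusted p = 0.308) had a 95% interval from -0.34 to 0.086. It was -0.057 (adjusted p = 0.684) without Rnf40+/+ replicate 1 and -0.22 (adjusted p = 0.0716) without Rnf40+/+ replicate 3, so that its size rested on single libraries. Orai1, a calcium channel gene with an exon on the other strand of Kdm2b, had 383 ± 4.01 and 355 ± 57.1 normalized counts, and A930024E05Rik, which also overlaps it, has no value in the table.

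The KDM6 genes also moved in opposite directions, and Kdm6b had the largest change of the 8. KDM6B is known as an inducible enzyme, raised by inflammatory signals and in differentiation. Kdm6b (ENSMUSG00000018476, minus strand of chromosome 11, 69212010 to 69227177, 23 exons) had 1228, 1183 and 1138 normalized counts in Rnf40+/+ and 628, 629 and 628 in Rnf40-/- libraries. The 3 Rnf40-/- values were nearly the same, and each was far below the lowest Rnf40+/+ value. Kdm6b had as few as 603 reads in a library. Counting alone usually spreads such values more widely, so this closeness is not a measure of precision. The means of 1183 ± 44.9 and 628 ± 0.768 (SD, n = 3 each) gave a log2 change of -0.91 (SE 0.071, 95% interval -1.07 to -0.76, adjusted p = 1.10e-06), and with any 1 library left out it lay between -0.94 and -0.88. The gene 1700064E03Rik overlaps Kdm6b on the other strand and has no value in the table.

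KDM6A is encoded on the X chromosome and is part of the MLL3/MLL4 (COMPASS-like) complexes that methylate H3K4 at enhancers. Kdm6a (ENSMUSG00000037369, plus strand of chromosome X, 17739701 to 17857062, 29 exons) had 522, 584 and 502 normalized counts in Rnf40+/+ and 652, 818 and 592 in Rnf40-/- libraries. The groups did not overlap, but the lowest Rnf40-/- library was just above the highest Rnf40+/+ library and replicate 2 was the highest library of both. It rose from 536 ± 42.8 to 687 ± 117 (SD, n = 3 each), a log2 change of 0.35 (SE 0.12, 95% interval 0.093 to 0.60, adjusted p = 0.0276). Without Rnf40-/- replicate 2 the log2 change was 0.21 (adjusted p = 0.134), and the call was also lost without Rnf40+/+ replicate 1 (0.33, adjusted p = 0.0518), Rnf40+/+ replicate 3 (0.30, adjusted p = 0.0533) or Rnf40-/- replicate 1 (0.38, adjusted p = 0.0513).

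**Figure D2:**
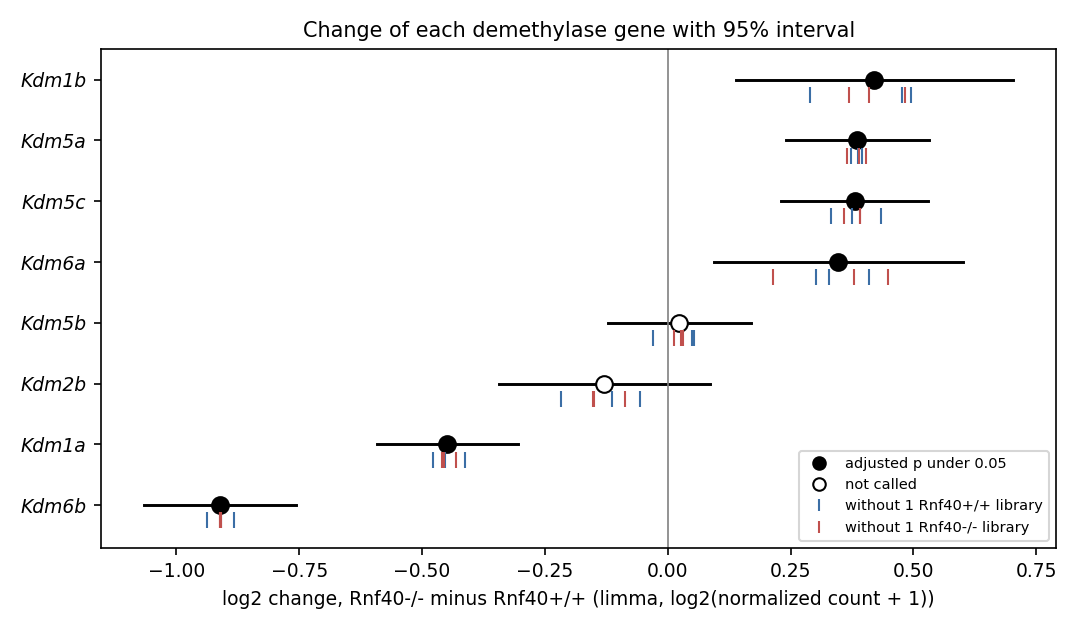
Each line is 1 gene, with its log2 change between Rnf40-/- and Rnf40+/+ MEFs on the horizontal axis as a dot with its 95% interval (filled where the adjusted p was under 0.05) and the value without each library in turn as a tick, blue for a Rnf40+/+ and red for a Rnf40-/- library left out. The ticks of Kdm6b, Kdm1a, Kdm5a and Kdm5c stay close to the dot, and those of Kdm1b (0.29 to 0.50) and Kdm6a (0.21 to 0.45) spread the most.

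The size of these changes was moderate among all genes. The median absolute log2 change of the genes tested was 0.335, and 13.9% of them had a larger absolute change than Kdm6b and 38.1% a larger one than Kdm1a. For the 4 members that rose this share was between 40.7% (Kdm1b) and 48.5% (Kdm6a), and it was 78.4% for Kdm2b and 96.0% for Kdm5b. By the criteria of the study (mean above 15, unadjusted p under 0.05 and an absolute log2 change above 1), 0 members were called in either direction with limma, edgeR or DESeq2, against 4.25% of genes tested that were higher and 5.70% that were lower with limma. With a minimum log2 change of 0.5 Kdm6b alone passed these criteria. The 3 libraries of 1 genotype were all above or all below the 3 of the other for 4 members that were higher and 2 that were lower, where 27.8% and 28.7% of all genes tested were separated in these directions.

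Because 2 members of a family are read in the same library, their ratio does not depend on how the libraries were scaled. The ratio of Kdm6a to Kdm6b reads shifted most. Its log2 value was -1.23, -1.02 and -1.18 in Rnf40+/+ and 0.053, 0.38 and -0.085 in Rnf40-/- libraries, a difference of 1.26 or 2.39-fold, with no overlap. The log2 ratio of Kdm1a to Kdm1b went from 2.89 ± 0.29 to 2.03 ± 0.13 (SD, n = 3 each), a difference of -0.87, again without overlap. Within the KDM5 family, Kdm5a and Kdm5c kept nearly the same ratio, with log2 values of -1.22 ± 0.081 and -1.22 ± 0.015 (SD, n = 3 each) and a difference of 0.0049. Both differed from Kdm5b, by 0.36 for Kdm5a over Kdm5b and by -0.36 for Kdm5b over Kdm5c, without overlap of the genotypes. With 3 libraries against 3, an exact permutation test (two-sided) cannot give a p below 0.1. The exact p was 0.1 for 4 of the 5 pairs (0.125 after Benjamini-Hochberg adjustment over 5 pairs) and 0.9 for Kdm5a over Kdm5c.

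**Figure D3:**
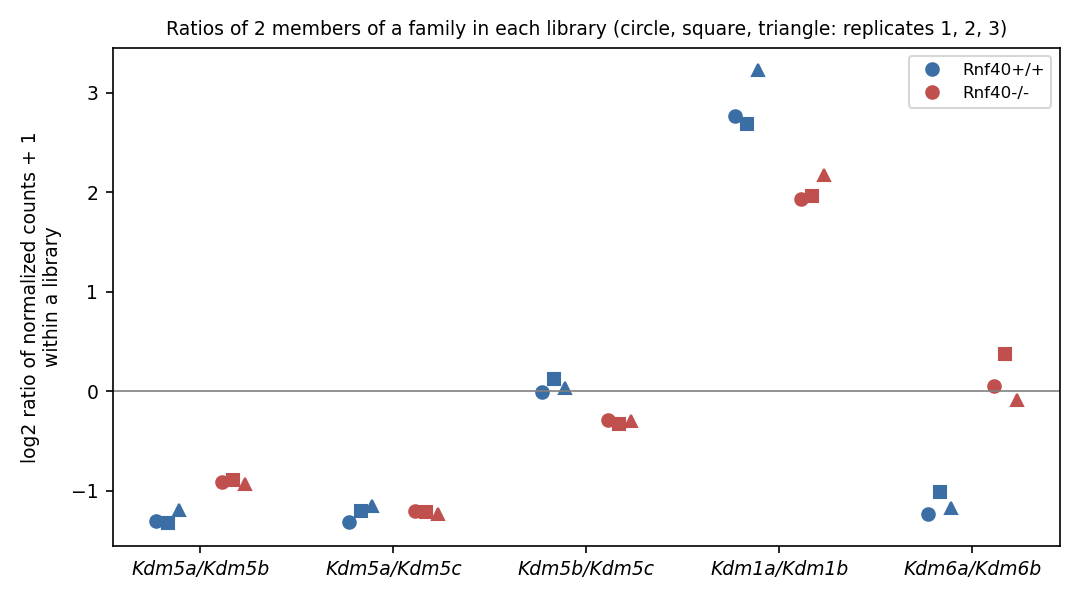
The vertical axis is the log2 ratio of the normalized counts (plus 1) of a pair of genes of 1 family within a library, for 5 pairs along the horizontal axis, with blue for Rnf40+/+, red for Rnf40-/- and circle, square and triangle for replicates 1, 2 and 3. Kdm6a/Kdm6b moves from about -1.14 to 0.12 and Kdm1a/Kdm1b from 2.89 to 2.03, while Kdm5a/Kdm5c overlaps.

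To compare levels between genes, normalized counts were divided by the length of the transcript with the longest coding part. Per kilobase, Kdm1a was the highest member in Rnf40+/+ MEFs, at 609.6 ± 28.0 (SD, n = 3), and Kdm1b the lowest, at 57.9 ± 8.73. Between them came Kdm5c (381 ± 27.3), Kdm5b (369 ± 23.3), Kdm6b (178 ± 6.74), Kdm2b (106 ± 11.8), Kdm6a (90.3 ± 7.22) and Kdm5a (87.7 ± 1.39). Of the neighbours in this order, Kdm5c and Kdm5b, Kdm2b and Kdm6a, and Kdm6a and Kdm5a had overlapping libraries. In Rnf40-/- MEFs Kdm5c came first (496 ± 13.1), followed by Kdm1a (446 ± 9.73) and Kdm5b (375 ± 5.04). Kdm6a (116 ± 19.8) and Kdm5a (115 ± 3.21) overlapped each other, as did Kdm2b (96.8 ± 4.87) and Kdm6b (94.4 ± 0.115), and Kdm1b was again the lowest (77.1 ± 6.07). The lowest Kdm6a library (99.75) also lay just below the highest Kdm2b library (99.79).

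Summed per kilobase, the 3 KDM5 genes went from 838 ± 48.9 to 985 ± 21.1 (SD, n = 3 each), or 118% of the Rnf40+/+ level, with Kdm5b making up 44.0 ± 1.01% and then 38.0 ± 0.313% of the sum. The KDM1 sum went from 667 ± 19.7 to 523 ± 9.94, or 78.4%, as Kdm1a made up 91.3 ± 1.53% of it in Rnf40+/+ MEFs. The KDM6 sum went from 268 ± 10.95 to 210.2 ± 19.9, also 78.4%. Kdm6a made up 33.7 ± 1.75% of the KDM6 sum in Rnf40+/+ and 54.8 ± 4.07% in Rnf40-/- MEFs, so that the order of the pair was turned round at the level of mRNA per kilobase. The libraries of the genotypes did not overlap in any of these sums. No test was made of the sums, and other transcript lengths would move the shares.

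Kdm5c and Kdm6a are X-linked and have Y-linked relatives, Kdm5d and Uty, so the sex-linked genes were read beside them. Xist, the RNA made by the inactive X chromosome, had 9345, 8741 and 9616 normalized counts in Rnf40+/+ and 8577, 9442 and 7178 in Rnf40-/- libraries (log2 change -0.14, adjusted p = 0.218). Kdm5d had 5.97 normalized counts in Rnf40+/+ replicate 1 and at most 1.04 in the other libraries. Uty had 20.3, 5.10 and 13.6 in Rnf40+/+ and 6.12, 6.26 and 2.83 in Rnf40-/- libraries. Ddx3y and Eif2s3y were at 81.2 and 39.4 in Rnf40+/+ replicate 1 and at most at 7.14 and 2.04 elsewhere. Thus Xist was high in all libraries, and reads of Ddx3y and Eif2s3y stood out in Rnf40+/+ replicate 1. Ddx3x and Eif2s3x, 2 other X-linked genes with Y-linked relatives, had log2 changes of 0.01 (adjusted p = 0.940) and 0.17 (adjusted p = 0.0611). Without Rnf40+/+ replicate 1 the log2 change of Kdm5c was 0.43 (adjusted p = 0.000304) and that of Kdm6a was 0.33 (adjusted p = 0.0518), so that the call of Kdm6a was lost. Of the 50-base windows of the Kdm6a transcript, 12 of 5886 (0.204%) also occur in Uty, and the other 7 members share no such window with another gene.

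The other JmjC genes tested had smaller absolute log2 changes than Kdm6b. Of 18 such genes, 17 had a value and 15 were tested (Kdm5d and Uty had too few reads), and 5 were higher, 1 was lower and 9 were not called, with a median log2 change of 0.18 against -0.0035 over all genes tested. Over all genes tested, 23.3% were higher and 24.1% were lower. None of the JmjC genes called here had an absolute log2 change above 0.5, the minimum set for naming, so the following were named after their values were seen. Kdm4c, an H3K9 demethylase, had the largest change, from 702 ± 22.3 to 959.7 ± 14.1 normalized counts (SD, n = 3 each, log2 change 0.45, adjusted p = 0.000278). Its relatives Kdm4a (0.18, adjusted p = 0.0420) and Kdm4b (0.28, adjusted p = 0.0234) and the H3K9 demethylase Kdm3b (0.32, adjusted p = 0.00697) rose too, as did Jmjd1c (0.22, adjusted p = 0.0196). Phf2, a JmjC protein that binds H3K4me3 through its PHD finger, fell by 0.30 (adjusted p = 0.00753). Kdm2a, the closest relative of Kdm2b, had a log2 change of 0.12 (adjusted p = 0.142).

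**Figure D4:**
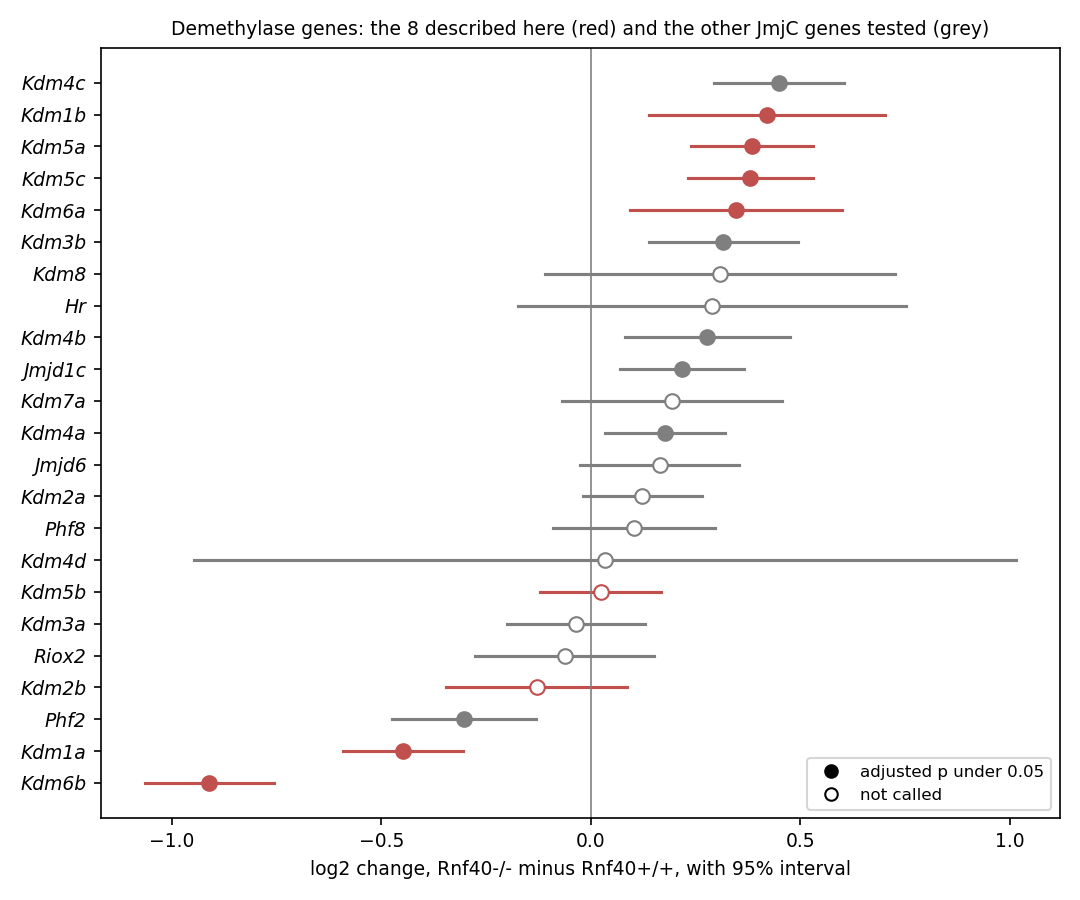
Log2 change between Rnf40-/- and Rnf40+/+ MEFs with its 95% interval (horizontal axis) for the 8 members (red) and the 15 other JmjC genes tested (grey), filled where the adjusted p was under 0.05. Kdm6b and Kdm1a lie at the lower end, at -0.91 and -0.45, and the calls above 0 lie between 0.18 and 0.45.

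Genes for the partners of these enzymes were read from lists written for each complex. Counts of called genes in these lists, and in the methyltransferase lists below, stand beside 23.3% of all genes tested higher and 24.1% lower. No list was tested as a set. Of 15 partners of LSD1 and CoREST 13 were tested, of which 2 were higher and 6 lower (median log2 change -0.15). The CoREST scaffold genes differed among themselves. Rcor2 had 159, 163 and 178 normalized counts in Rnf40+/+ and 97.9, 71.0 and 81.2 in Rnf40-/- libraries (log2 change -1.002, adjusted p = 0.000338), and Rcor3 also fell (-0.87, adjusted p = 0.00418). Rcor1 had 399, 426 and 335 in Rnf40+/+ and 548, 549 and 458 in Rnf40-/- libraries (0.42, adjusted p = 0.00892). Snai1, a repressor of epithelial genes that binds LSD1, had 727, 769.9 and 942 against 389.5, 428 and 449 (-0.94, adjusted p = 2.13e-05). The deacetylase genes Hdac1 and Hdac2, which work in CoREST and in other complexes, had log2 changes of -0.038 and -0.0079 and were not called.

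Of 8 KDM5 partners tested, 1 was higher and 3 were lower (median -0.15). Phf12, a PHD finger protein of the SIN3 complex, fell by 0.42 (adjusted p = 0.00355), Mrfap1 by 0.30 (adjusted p = 0.00980) and Zmynd8, a reader of acetylated and methylated histone tails, by 0.21 (adjusted p = 0.0222). The call of Zmynd8 was lost under 5 of 15 alternatives, with an adjusted p up to 0.0989, and that of Mrfap1 without Rnf40-/- replicate 2 (adjusted p = 0.0551). Of 10 genes of PRC1.1, the complex of KDM2B, 4 were higher and 1 was lower (median 0.02). Usp7, a deubiquitinase, rose by 0.59 (adjusted p = 2.62e-05) and Skp1a, the adaptor that binds the F-box of KDM2B, by 0.49 (adjusted p = 0.000124), while Ring1, one of the ubiquitin ligase genes for H2A, fell by 0.52 (adjusted p = 0.00170). Of 8 tested partners of KDM6A, 4 were higher and 2 lower (median 0.25). Mll3 (Kmt2c), an H3K4 methyltransferase of enhancers, rose by 0.65 (adjusted p = 0.000371) and Wdr5, a shared subunit of the MLL complexes, by 0.44 (adjusted p = 0.000273), while Dpy30, another shared subunit, fell by 0.43 (adjusted p = 0.00630).

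The enzymes that place the same marks were read last. Of 6 H3K4 methyltransferase genes 3 were higher and none was called lower (median 0.26). Mll1 (Kmt2a) had 1612, 1488 and 1539 normalized counts in Rnf40+/+ and 2668, 2765 and 2448 in Rnf40-/- libraries, with every Rnf40-/- library above (log2 change 0.76, adjusted p = 3.68e-06). Setd1a, which methylates H3K4 at promoters, rose by 0.25 (adjusted p = 0.00866), and Mll3 is given above. Of the pair of H3K27 methyltransferase genes, Ezh2 had 506, 367 and 371 normalized counts in Rnf40+/+ and 184, 189 and 174 in Rnf40-/- libraries (log2 change -1.17, adjusted p = 2.35e-05), and Ezh1 rose (0.45, adjusted p = 0.00509). The fall of Ezh2 had been reported by the study itself, from sequencing, quantitative PCR and western blot. The study described Ezh1 mRNA as unaffected, by sequencing and by quantitative PCR, and EZH1 protein as decreased. Its criteria for a changed gene asked for an absolute log2 change above 1, which the rise of Ezh1 given here does not reach. Thus 1 gene of each pair fell and the other rose. Of the genes for writers of H3K27 methylation, Ezh2 fell (-1.17) and Ezh1 rose (0.45). Of those for enzymes that remove H3K27me3, Kdm6b fell (-0.91) and Kdm6a rose (0.35), with a call that rested on single libraries.

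Genes with a pattern over the 6 libraries most like a member were sought for Kdm6b, the largest fall, and Kdm1b, the largest rise. They were found by the root mean square distance between their log2 differences from the Rnf40+/+ mean, among 11548 genes with a mean above 100. Nearest to Kdm6b were Chst14 (0.028), Maged1 (0.028), Grb14 (0.033), Tpm4 (0.043) and Fhl2 (0.046), with log2 changes between -0.96 and -0.89. Nearest to Kdm1b were Urb1 (0.039), Pitpnc1 (0.042), Rcor1 (0.050), 1110018G07Rik (0.052) and mKIAA0357 (0.060), with log2 changes between 0.42 and 0.47. The distance includes the change between genotypes, so the similar log2 changes follow from the way these genes were picked. The call of Kdm1b itself rested on single libraries. These distances are a description of 6 libraries.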

How the data were processed

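Libraries from total RNA were made with a directional kit, and the submitters' processing notes name Bowtie2 (version 2.1.0), DESeq (version 1.14.0) and mm9, while the counting tool is not given in the sources used here. The deposited signal is the number of reads per gene divided by 1 DESeq size factor per library. In each library 100% of positive values were whole multiples of 1 read (tolerance 0.01 read), which gave back the reads.

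Changes were tested with limma (version 3.58.1; lmFit, eBayes with trend) on log2(normalized count + 1) over 16378 genes kept by filterByExpr of edgeR (version 4.0.16), with Benjamini-Hochberg adjustment and genotype as the only term. This follows the unit of the table. Alternatives were edgeR with TMM and DESeq2 (version 1.42.0) on the recovered reads, TMM or upper-quartile scaling, no filter or 10 reads in every library, pseudocounts of 0.1 and 10, a replicate block and each library left out. The limma, edgeR and DESeq2 tests were tried on simulated data, and the permutation test of the ratios was not. Positions are from GENCODE on mm9 (NCBIM37). R (version 4.3.3) and Python (version 3.11.15) were used.

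All members are named. From the other lists, the 3 called genes with the largest absolute change were named, or, of other JmjC genes, those called with an absolute log2 change above 0.5, and Rcor1, Hdac1, Hdac2, Kdm2a, Actc1, Tyrobp, Nes, Des, Ddx3x and Eif2s3x were named after their values were seen. The members and lists were chosen with earlier results of these data known. Protein sequences and ChIP-seq data were not used here.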

Additional observations from a re-analysis of the deposited data

How the results depend on the processing

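Kdm5a, Kdm5c, Kdm1a, Kdm6b and Kdm2b kept their direction and their side of the threshold of 0.05 under all 15 alternatives. The calls of Kdm1b and Kdm6a held under the other tests, scalings, filters and pseudocounts and were lost under 3 and 4 of the 6 leave-one-out fits. When any 1 library was left out, the number of members called higher ranged from 2 to 4, the log2 change of Kdm1b from 0.29 to 0.50, that of Kdm6a from 0.21 to 0.45, that of Kdm2b from -0.22 to -0.057, that of Kdm5b from -0.030 to 0.053, with the sign turned without Rnf40+/+ replicate 3, and the log2 difference of Kdm5a over Kdm5c from -0.039 to 0.040, with the sign turned without Rnf40+/+ replicate 1 (-0.039) or Rnf40-/- replicate 1 (-0.0025). Each of these fits has 1 library fewer. With a minimum absolute log2 change of 0.5 in the criteria of the study, 1 member was lower instead of 0. Of all genes tested, edgeR called 3857 higher and 3940 lower, DESeq2 3563 and 3726, and limma after upper-quartile scaling 4299 and 3536, against 3809 and 3955. The replicate numbers did not clearly pair the libraries: same-numbered libraries deviated with correlations of 0.0118, 0.0174 and 0.0212 across genes, and not every library correlated best with its own number. With the replicate block, 4 members were higher and 2 lower, as without it, 4021 and 4196 of all genes were called, and no member's call changed. In that limma fit the adjusted p was 0.00564 for Kdm1b and 0.00330 for Kdm6a, smaller than without the block. Upper-quartile scaling moved the median of all genes from -0.0035 to 0.044. Each member had 224 reads or more, and Kdm5d and Uty had too few to be tested.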

Other observations

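JmjC enzymes consume 2-oxoglutarate, and succinate, fumarate and 2-hydroxyglutarate compete with it. Of 14 genes of enzymes that make or use these metabolites, 2 were higher and 6 lower in Rnf40-/- MEFs (limma, adjusted p under 0.05), with a median log2 change of -0.09. Among all genes tested, 23.3% were higher and 24.1% were lower. Idh1, the cytosolic isocitrate dehydrogenase that makes 2-oxoglutarate, had 2471, 2501 and 2404 normalized counts in Rnf40+/+ and 1181, 1259.7 and 1239 in Rnf40-/- libraries, a log2 change of -1.003 (adjusted p = 2.17e-07). Its mitochondrial counterpart Idh2 had 1441, 1277 and 1508.5 against 671, 769 and 736 (-0.96, adjusted p = 3.22e-06). Glud1, the mitochondrial glutamate dehydrogenase, which also makes 2-oxoglutarate, had 6521, 6522 and 5617 against 9879, 9934 and 10519 (0.70, adjusted p = 1.04e-05). The genotypes did not overlap for any of the 3 genes, and the calls held under all 15 alternatives. Metabolites were not measured.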
